A study of Mus with 4 samples.

Results

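The cap'n'collar (CNC) and BACH transcription factors, their small Maf partners and the inhibitor Keap1 were examined in subcutaneous tumors of Renca, a renal adenocarcinoma cell line of the mouse. The members were 10 genes listed by name, Nfe2, Nfe2l1, Nfe2l2, Nfe2l3, Bach1, Bach2, Keap1, Maff, Mafg and Mafk, out of 19505 genes named on the array. All 10 were found, each with 1 probe set. The cells stably expressed a short hairpin RNA, either shNrf3, which targets Nrf3, or the control shCtrl, and grew under the skin of the flanks of male BALB/cCrSlc mice for 2 weeks. The hosts, bought at an age of 4 to 6 weeks, had been fed a high-fat diet (HFD, HFD-60) or normal chow (NC, CE-2) for 17 weeks. The 4 groups were shNrf3-NC, shCtrl-NC, shNrf3-HFD and shCtrl-HFD, with 1 Affymetrix array of total tumor RNA in each. The hairpin was carried by the Renca cells only, so host cells in the tumor kept an untargeted Nrf3, and the labels leave unstated whether a line was 1 clone and whether an array held 1 tumor.

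CNC factors are basic leucine zipper proteins that bind antioxidant response elements as dimers with a small Maf. Nfe2 encodes the p45 subunit of NF-E2, which acts in erythroid cells and platelets. Nfe2l1, Nfe2l2 and Nfe2l3 encode NRF1, NRF2 and NRF3. NRF1 is bound to the endoplasmic reticulum and drives proteasome genes, NRF2 drives antioxidant and detoxification genes, and NRF3 is also held at the endoplasmic reticulum. Bach1 and Bach2 encode repressors that pair with the same small Mafs and compete for the same elements, and heme releases BACH1 from DNA. Keap1 binds NRF2 in the cytoplasm and directs it to degradation. Much of this control acts on protein stability, which an RNA array does not measure.

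Values are on the log2 scale, on which a difference of 1 is 2-fold. Because every group is a single array, differences are descriptions with no replicates behind them, and 4 arrays in all limit the precision. The negative control rows set the background. Their medians lay between 5.35 and 5.39 and their 95th percentiles between 8.97 and 9.35 on the 4 arrays. The median of the positive control rows was 9.70 on the shNrf3-NC array, 9.19 on the shCtrl-NC array, 9.57 on the shNrf3-HFD array and 9.75 on the shCtrl-HFD array, so it was lowest on shCtrl-NC. That array also held the lowest value of 41.6% of the 10021 genes whose mean was 5.73 or more, the median over all rows. Among marker lists, skeletal muscle markers averaged 10.7 in shNrf3-NC and between 5.70 and 6.93 elsewhere, and the carcinoma keratins Krt8 and Krt18, at 14.3 or more on every array, were far above the control rows. Epcam read 9.09 to 11.12, while Pax8, a factor of the renal tubule, read below the control median on all 4 arrays. In bulk tumor RNA, fewer cells of a type and less RNA per cell cannot be told apart.

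The targeted gene came first. Nfe2l3 read 5.56 on the shNrf3-NC array against 6.22 on the shCtrl-NC array, and 6.05 on the shNrf3-HFD array against 5.77 on the shCtrl-HFD array. The difference was -0.66 in NC and 0.28 in HFD, so in HFD the library labelled shNrf3 read higher. Between 55.2% and 66.0% of the negative control rows read below Nfe2l3 on the same array, which places it near the middle of that background on all 4. The NC difference stood just past the 1.5-fold limit of 0.58 used below and went inside it after cyclic loess (-0.564) and after median centring of the arrays (-0.562). The array therefore bears out no loss of Nfe2l3 that is larger than the scatter at this level, and directions below rest on the labels shNrf3 and shCtrl. Where in the transcript the probes of this set lie is not stated.

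**Figure D1:**
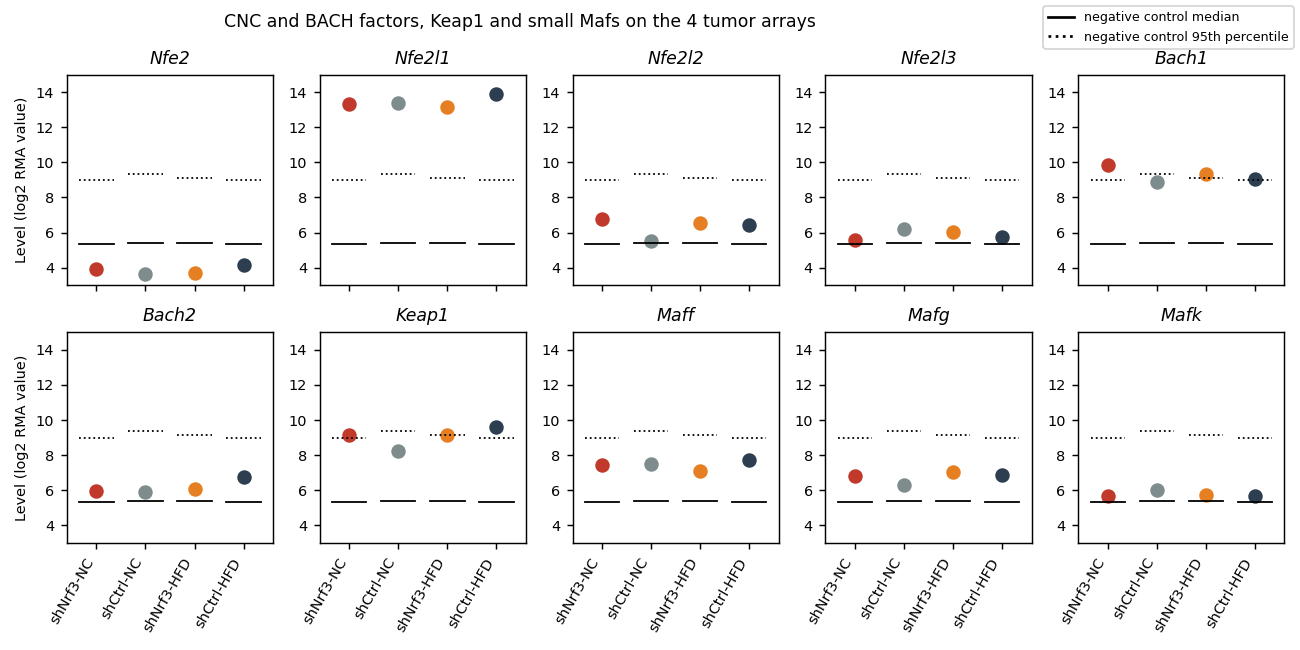
Level (log2 RMA value, vertical axis) of each of the 10 members on the 4 arrays, 1 point per array. Solid and dotted lines mark the median and 95th percentile of that array's negative control rows. Nfe2 lies below the median on all 4 arrays, Nfe2l1 above the 95th percentile on all 4, and Bach1 and Keap1 cross that percentile on 3.

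Measured against the control rows, Nfe2l1 stood clear of background on all 4 arrays, above 98.8% to 99.3% of the negative control rows. Bach1 and Keap1 exceeded the 95th percentile on 3 arrays and fell short of it on shCtrl-NC. The other 7 members exceeded it on none. Nfe2 read below the negative control median on every array, at 3.95 in shNrf3-NC, 3.61 in shCtrl-NC, 3.70 in shNrf3-HFD and 4.14 in shCtrl-HFD, so that its differences have no measured direction. Markers of the cells it is known from were measured too. Alas2, the erythroid heme synthesis gene, read 5.65 to 6.54, Klf1, an erythroid transcription factor, 3.85 to 4.98, and Pf4, the platelet factor gene, 7.66 to 8.68. Alas2, Pf4 and the platelet integrin gene Itga2b read above the negative control median on all 4 arrays, and Klf1 on 0. Of 5 measured erythroid and platelet markers 0 exceeded the 95th percentile of the control rows on any array. The filter at 5.73 was passed by the 9 members other than Nfe2.

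Among the CNC factors in NC, Nfe2l2 differed most by construct. Nfe2l2 read 6.76 on the shNrf3-NC array against 5.53 on the shCtrl-NC array, a difference of 1.23. In HFD the shNrf3 array read 6.55 and the shCtrl array 6.44, a difference of 0.11. The shCtrl-NC value, just above its control median of 5.38, thus stood apart from the other arrays, which lay between 6.44 and 6.76. Nfe2l1 read 13.32 on the shNrf3-NC array against 13.37 on the shCtrl-NC array, a difference of -0.05, and 13.16 on the shNrf3-HFD array against 13.89 on the shCtrl-HFD array, a difference of -0.74. Here shCtrl-HFD stood above the other arrays by 0.52 or more. The Nfe2l1 probe set is annotated to 6 RefSeq transcripts, and isoforms of NRF1 cannot be told apart by it.

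The repressor Bach1 had the same order of the 4 arrays as Nfe2l2. Bach1 read 9.86 on the shNrf3-NC array against 8.88 on the shCtrl-NC array, a difference of 0.98, and 9.34 on the shNrf3-HFD array against 9.07 on the shCtrl-HFD array, a difference of 0.26. Both shNrf3 arrays read above both shCtrl arrays. Bach2, a repressor best known in B and T lymphocytes, read 5.97 on the shNrf3-NC array against 5.90 on the shCtrl-NC array, a difference of 0.07. In HFD Bach2 read 6.06 on the shNrf3 array against 6.74 on the shCtrl array, a difference of -0.67. The other arrays lay between 5.90 and 6.06, so shCtrl-HFD stood apart. The 4 measured B cell markers (Ms4a1, Cd79a, Cd79b and Pax5) read below the negative control median on all 4 arrays. The 5 T cell markers averaged 7.05 on shNrf3-NC, 5.93 on shCtrl-NC, 5.09 on shNrf3-HFD and 5.74 on shCtrl-HFD, and 0 of 5 exceeded the 95th percentile of the control rows on any array. Among them Cd3d, Cd3e, Cd3g and Cd8a were highest on shNrf3-NC, at 6.21, 7.05, 7.84 and 7.43. On the other arrays Cd3e and Cd3g read 5.01 to 5.76, Cd8a 5.13 to 5.60 and Cd3d 4.46 to 5.88. Only Cd4 was, like Bach2, highest on shCtrl-HFD, at 6.72 in shNrf3-NC, 7.05 in shCtrl-NC, 5.84 in shNrf3-HFD and 7.14 in shCtrl-HFD. The part of T cells in the Bach2 values was not tested.

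Keap1 had the widest range of the members, 1.40. Keap1 read 9.15 on the shNrf3-NC array against 8.22 on the shCtrl-NC array, a difference of 0.93, and 9.16 on the shNrf3-HFD array against 9.62 on the shCtrl-HFD array, a difference of -0.46. The signs were opposite in the 2 diets. Its probe set is annotated to 4 RefSeq transcripts.

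The small Mafs lack an activation domain and serve as dimer partners for both the activators and the repressors. Mafg read 6.80 on the shNrf3-NC array against 6.29 on the shCtrl-NC array, a difference of 0.51, and 7.03 on the shNrf3-HFD array against 6.86 on the shCtrl-HFD array, a difference of 0.17. Maff read 7.46 on the shNrf3-NC array against 7.49 on the shCtrl-NC array, a difference of -0.04, and 7.10 on the shNrf3-HFD array against 7.74 on the shCtrl-HFD array, a difference of -0.64. The HFD difference of Maff was inside the limit after cyclic loess (-0.51). Mafk read 5.66 on the shNrf3-NC array against 6.02 on the shCtrl-NC array, a difference of -0.36. In HFD Mafk read 5.73 on the shNrf3 array and 5.70 on the shCtrl array. The 3 small Mafs thus did not share an order of arrays.

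**Figure D2:**
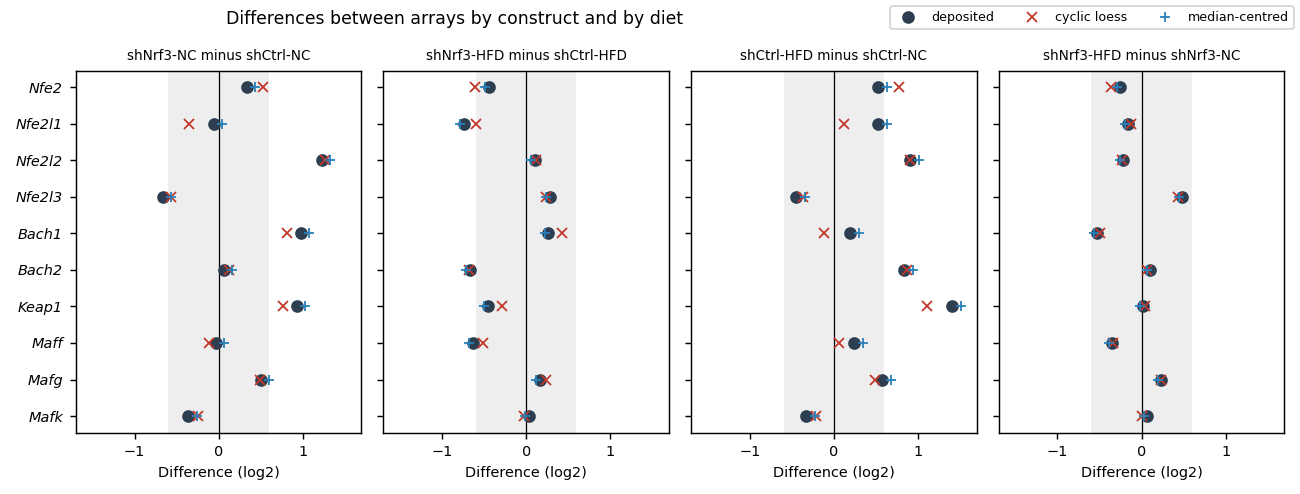
Log2 difference (horizontal axis) of each member in 4 comparisons, from the deposited values (points), after cyclic loess (crosses) and after median centring (plus signs). The grey band spans less than 1.5-fold. In NC Nfe2l2, Bach1 and Keap1 lie right of it under all 3 scalings, and in HFD minus NC with shNrf3 all 10 members lie inside it.

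Counted over all 10 members, 4 were 1.5-fold or more apart by construct in NC, with Nfe2l2, Bach1 and Keap1 higher and Nfe2l3 lower. Of all named genes 37.7% were that far apart (18.8% higher and 18.9% lower), and of the 10021 genes past the filter 40.3% (26.8% higher). In HFD 3 members were lower by that much (Nfe2l1, Bach2 and Maff) and 0 higher, against 31.1% of named genes either way and 15.7% lower, and 20.8% lower past the filter. The median member difference was 0.20 in NC and -0.21 in HFD, beside -0.03 and -0.0034 over all named genes and 0.14 and -0.14 over those past the filter. No member was 1.5-fold or more apart in the same direction in both diets, where 2.68% of named genes were higher and 3.22% lower in both. The members' shares were thus close to those of the array as a whole, and they do not set the family apart. Negative control rows were 1.5-fold or more apart between the same arrays in 60.2% of cases in NC and 57.3% in HFD. At levels near these rows, where Nfe2l2, Nfe2l3, Bach2, Mafg and Mafk lay, a difference of this size is within their scatter (SD 1.34 in NC and 1.28 in HFD).

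**Figure D3:**
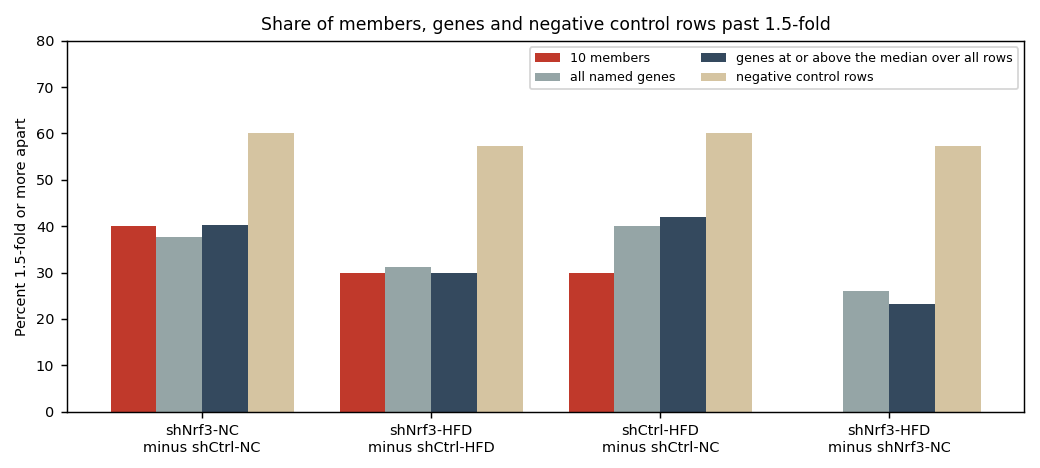
Percent (vertical axis) of the 10 members, of all named genes, of genes past the filter on level and of negative control rows that were 1.5-fold or more apart, for 4 comparisons of 2 arrays. The members' bars stand at 40, 30, 30 and 0, near or below those of all named genes, and the negative control rows stand highest in each comparison.

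By diet with the control hairpin, Keap1, Nfe2l2 and Bach2 read higher in HFD. Keap1 differed by 1.40 (9.62 in shCtrl-HFD against 8.22 in shCtrl-NC), Nfe2l2 by 0.91 (6.44 against 5.53) and Bach2 by 0.84 (6.74 against 5.90). These 3 were 1.5-fold or more higher and 0 lower, against 40.1% of named genes either way and 20.9% higher, and 31.2% higher past the filter. In the same comparison 4 of 4 neutrophil markers (median 1.44), 5 of 5 adipocyte markers (median 1.17) and 4 of 5 keratinocyte markers (median 0.70) were 1.5-fold or more higher, and 1 keratinocyte marker was lower. Of the adipocyte markers, Lep read below the negative control median on all 4 arrays, so its difference has no measured direction. Of the renal epithelium and carcinoma markers 3 of 6 were higher and 0 lower (median 0.56, or 0.19 after cyclic loess). The part of these cells in the members' values was not tested. Mafg (0.57), Nfe2 (0.53, below background) and Nfe2l1 (0.52) lay just inside the limit, and after median centring, which moved the median of all named genes in this comparison by 0.11, they passed it at 0.67, 0.64 and 0.63. After cyclic loess the Nfe2l1 difference was 0.12. Nfe2l3 differed by -0.45 and Mafk by -0.33. With shNrf3, 0 of 10 members were 1.5-fold or more apart between the diets, against 26% of named genes. The differences ran between -0.53 for Bach1 (9.34 in shNrf3-HFD against 9.86 in shNrf3-NC) and 0.48 for Nfe2l3 (6.05 against 5.56). Keap1, the widest by diet with shCtrl, differed by 0.01 with shNrf3. The comparisons by construct and by diet share arrays, so they are not independent.

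Taking both diets, the shNrf3 arrays both read above the shCtrl arrays for 2 members (Nfe2l2 and Bach1) and both below for 2 (Nfe2l1 and Maff), against 15.5% and 17.5% of named genes. Nfe2l2 and Bach1 kept this order after cyclic loess and after median centring. Nfe2l1 and Maff kept it after cyclic loess and lost it after median centring. Mafg joined those above after cyclic loess. Mafk joined those below after cyclic loess and was the only member below after median centring. Taking both constructs, the HFD arrays both read above the NC arrays for 3 members (Bach2, Keap1 and Mafg), against 16.6% of named genes and 20.2% past the filter, and both below for 0, against 14.5% of named genes. Bach2 kept this order under both other scalings, whereas Mafg lost it after cyclic loess and Keap1 after median centring. Keap1 read 9.16 in shNrf3-HFD against 9.15 in shNrf3-NC, so its order rests on a difference of 0.01.

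The shCtrl-NC array held the lowest value of 6 members (Nfe2, Nfe2l2, Bach1, Bach2, Keap1 and Mafg), against 29.8% of all named genes, 41.6% of those past the filter, 45.5% of the positive control rows and 24.2% of the negative control rows. After cyclic loess it held the lowest value of 5 members and of 31.6% of the genes past the filter. Over all 4 arrays 8 members spanned 1.5-fold or more, against 73.4% of named genes. Without shCtrl-NC 4 did (Nfe2l1, Bach1, Bach2 and Maff), against 51.9% of named genes. Leaving out another array gave 6 members against 60.9% of named genes without shNrf3-NC, 5 against 60.8% without shNrf3-HFD and 5 against 57.7% without shCtrl-HFD. Without shCtrl-NC the range was 0.32 for Nfe2l2 and 0.47 for Keap1, against 1.23 and 1.40 with it. The part of that array's overall signal in these values was not tested.

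**Figure D4:**
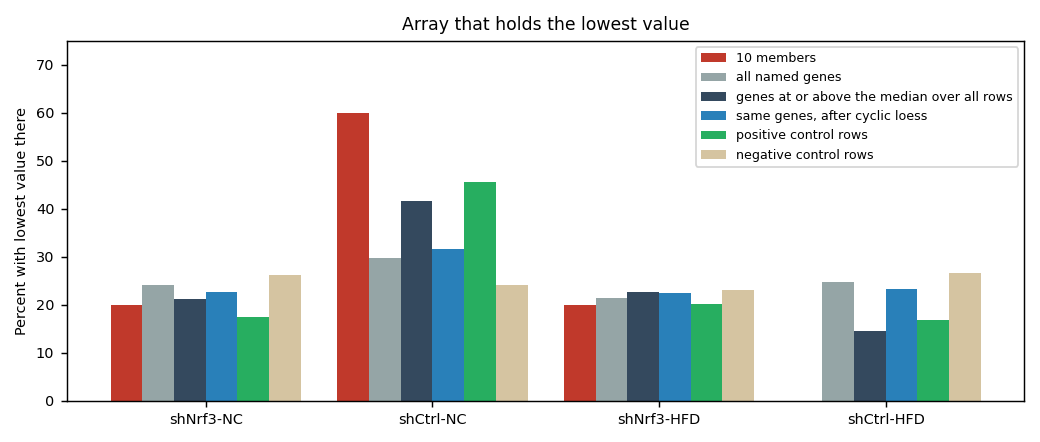
Percent (vertical axis) of the 10 members, of gene sets and of control rows whose lowest value of the 4 lay on each array. On shCtrl-NC the members stand at 60, genes past the filter at 41.6, the positive control rows at 45.5 and the negative control rows at 24.2.

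The construct by diet difference, which is the shNrf3 minus shCtrl difference in HFD minus that in NC, was 1.5-fold or more for 8 members, 7 of them negative. One of the 7 is Nfe2, which lay below background, and without it 7 members were that far apart, 6 of them negative. The share of 8 in 10 compares with 51.3% of named genes, 50.9% of those past the filter and 71.5% of negative control rows. These shares hold both signs, and shares by sign were not counted. It was -1.39 for Keap1 and -1.12 for Nfe2l2, and it was 0.94 for Nfe2l3. The member median was -0.70 (-0.69 without Nfe2), beside -0.01 over all named genes and -0.30 over those past the filter.

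A limma fit with construct and diet as additive terms was run over the 10021 genes. Each gene has 1 residual degree of freedom, the construct by diet difference. The fit draws the error of each gene toward a value pooled over all genes tested, so the SEs below rest largely on that pool. In it 0 genes (0%) passed an adjusted p of 0.05 for either term. At an unadjusted p under 0.05 there were 447 genes by construct and 292 by diet, and 0 of the 9 members tested were among them. For construct the Nfe2l2 difference averaged over diets was 0.67 ± 0.44 (SE, limma adjusted p = 0.961) and that of Bach1 0.62 ± 0.40 (limma adjusted p = 0.961), both higher with shNrf3 in both diets. For diet the Keap1 difference was 0.71 ± 0.47 (SE, limma adjusted p = 0.999), higher in HFD with both constructs, though by 0.01 with shNrf3, a difference that was -0.02 after median centring. Nfe2l3 differed by -0.19 ± 0.42 by construct (limma adjusted p = 0.990). The fit has no measure of how much tumors of 1 group vary, and a p that misses the threshold does not show equal levels.

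Genes that act downstream of or on these factors were described from 7 lists. In NC 16 of 29 measured NRF2 targets were higher with shNrf3 by at least 1.5-fold and 1 was lower (median 0.92), where 18.8% of all named genes were higher, and 26.8% were higher and 13.5% lower past the filter. Their median in HFD was 0.20 (0.36 after cyclic loess), with 3 of the 29 higher and 3 lower, where 15.4% of named genes were higher and 15.7% lower, and 9.12% were higher and 20.8% lower past the filter. Adipocyte markers also differed by construct, with 3 of 5 higher and 0 lower in NC (median 1.55) and 0 higher and 4 lower in HFD (median -1.33). Skeletal muscle markers differed more, with 5 of 5 higher in NC (median 4.47) and 4 lower in HFD (median -1.75). Of 5 T cell markers 3 were higher in NC (median 1.67) and 2 lower in HFD (median -0.57). Other lists ran lower with shNrf3. Of 6 renal epithelium and carcinoma markers 3 were lower and 0 higher in each diet (median -0.59 in both). Fibroblast markers were lower for 2 of 4 in NC and 4 of 4 in HFD, and endothelial markers for 3 of 5 in each diet, with 0 higher. Keratinocyte markers were lower for 5 of 5 in NC and for 4 in HFD, where 1 was higher. The part of these cells in the target values was not tested. The 3 targets higher in HFD (Hmox1, Nqo1 and Gsr) were higher in NC too. Hmox1, the heme oxygenase gene that BACH1 represses and NRF2 activates, read 14.84 on the shNrf3-NC array against 13.46 on the shCtrl-NC array, and 14.14 on the shNrf3-HFD array against 12.84 on the shCtrl-HFD array. Nqo1, the quinone reductase gene, read 7.55 on the shNrf3-NC array against 5.86 on the shCtrl-NC array, and 7.58 on the shNrf3-HFD array against 6.50 on the shCtrl-HFD array. For both genes the shNrf3 arrays lay above the shCtrl arrays, though Nqo1 exceeded the 95th percentile of the control rows on 0 of 4 arrays. The glutathione reductase gene Gsr, chosen after its values were seen, differed by 1.04 in NC and 0.76 in HFD.

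Of 8 BACH1 heme and iron targets 6 were higher and 1 lower with shNrf3 in NC (median 1.54), and 2 were higher and 0 lower in HFD (median 0.32). Past the filter 26.8% of genes were higher in NC and 9.12% in HFD, and of all named genes 18.8% and 15.4%. All 8 are also among the NRF2 targets. The ferritin heavy chain gene Fth1 read 19.93, the highest value on the scale, on all 4 arrays, so its difference of 0 is not a measurement. The ferritin light chain gene Ftl1 differed by 2.82 in NC and -0.13 in HFD, and the biliverdin reductase gene Blvrb by 2.03 and 0.48. Bach1 itself was higher with shNrf3 in NC, as were 6 of these 8 targets of its repression, while 1 was lower. Macrophages are rich in several of these products, and 4 of 5 measured macrophage markers were also 1.5-fold or more higher in NC and 2 in HFD (medians 0.70 and 0.55). The mannose receptor gene Mrc1 differed by 1.05 and 0.65. Their part in the target values was not tested.

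Proteasome genes driven by NRF1 were 1.5-fold or more higher with shNrf3 in NC for 22 of 32 measured and lower for 2, with a median of 0.72 (0.45 after cyclic loess). The HFD median was -0.17 (-0.02 after cyclic loess), with 1 higher and 5 lower. All 32 read above the upper limit of the background, the 95th percentile, on every array. Of the 5475 genes at or above the 75th percentile of level (8.45), 29.6% were 1.5-fold or more higher in NC and 10.7% lower, and in HFD 6.34% were higher and 20% lower. Psma7, a core particle subunit, differed by 1.88 in NC and 0.68 in HFD, and Psma5, another subunit of that particle, by 1.32 and 0.06. Psma7 was the 1 gene of the list higher in HFD. Psmb2, chosen after its values were seen, reversed, with 2.06 in NC and -0.80 in HFD. Nfe2l1 itself differed by -0.05 in NC. By diet with shCtrl, 16 of 32 were higher in HFD and 0 lower (median 0.59, or 0.23 after cyclic loess), where 34.4% of genes at this level were higher. With shNrf3 0 of 32 were higher and 2 lower (median -0.14), where 6.36% of genes at this level were higher and 12.7% lower. The shCtrl-NC array, low in Keap1 and Nfe2l2, was thus also low in proteasome genes.

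Of 5 genes tied to human NRF3 in earlier work, 2 were higher with shNrf3 in NC and 0 lower, and in HFD 0 were 1.5-fold apart, where 18.8% of named genes were higher in NC (26.8% past the filter) and 31.1% were apart either way in HFD. The proteasome assembly factor gene Pomp differed by 0.78 in NC and 0.29 in HFD, and Ggps1, which makes geranylgeranyl diphosphate, by 1.19 and -0.39. Srebf2, the regulator of cholesterol synthesis, differed by 0.32 and -0.56. Rab5a, an early endosome GTPase, differed by 0.12 and 0.50.

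Genes that act on the stability or processing of NRF proteins were measured for 13 of 14 and went both ways. In NC 2 were higher and 2 lower (median -0.12), and in HFD 0 were higher and 4 lower (median -0.18). Of all named genes 18.8% were higher and 18.9% lower in NC, and 15.4% higher and 15.7% lower in HFD, with 20.8% lower in HFD past the filter. Dpp3, whose product binds KEAP1, differed by 2.50 in NC and -0.18 in HFD, with 7.65 on shCtrl-NC against 9.62 to 10.15 on the other arrays. Gsk3b, the kinase that marks NRF2 for a KEAP1-independent degradation, differed by -0.51 and -0.95. The beta-TrCP paralog gene Fbxw11, which acts in that route, differed by -1.11 and -0.77 and was the 1 gene of the list lower in both diets. The autophagy receptor gene Sqstm1, whose product competes for KEAP1, differed by -0.31 and -0.86.

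Other basic leucine zipper genes, of the AP-1 and ATF list, passed 1.5-fold in both directions in each diet, mostly lower in HFD. Of 11 AP-1 and ATF genes 3 were higher and 1 lower with shNrf3 in NC (median 0.09), and 1 was higher and 4 lower in HFD (median -0.46, or -0.29 after cyclic loess). The shares of all named genes were 18.8% higher and 18.9% lower in NC, and 15.4% higher and 15.7% lower in HFD, with 20.8% lower in HFD past the filter. Jun differed by 0.97 and -0.64, Fos by 0.97 and -0.63, and Junb by -0.46 and -1.22. Atf4, the amino acid response factor, differed by -1.01 and -0.31. The 1 gene higher in HFD was Batf3, at 5.98 in shNrf3-HFD against 5.32 in shCtrl-HFD, where the control median was 5.36. Among the large Mafs, Maf differed by 0.95 in NC and -0.27 in HFD, and Mafa and Nrl read below the negative control median on all 4 arrays.

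**Figure D5:**
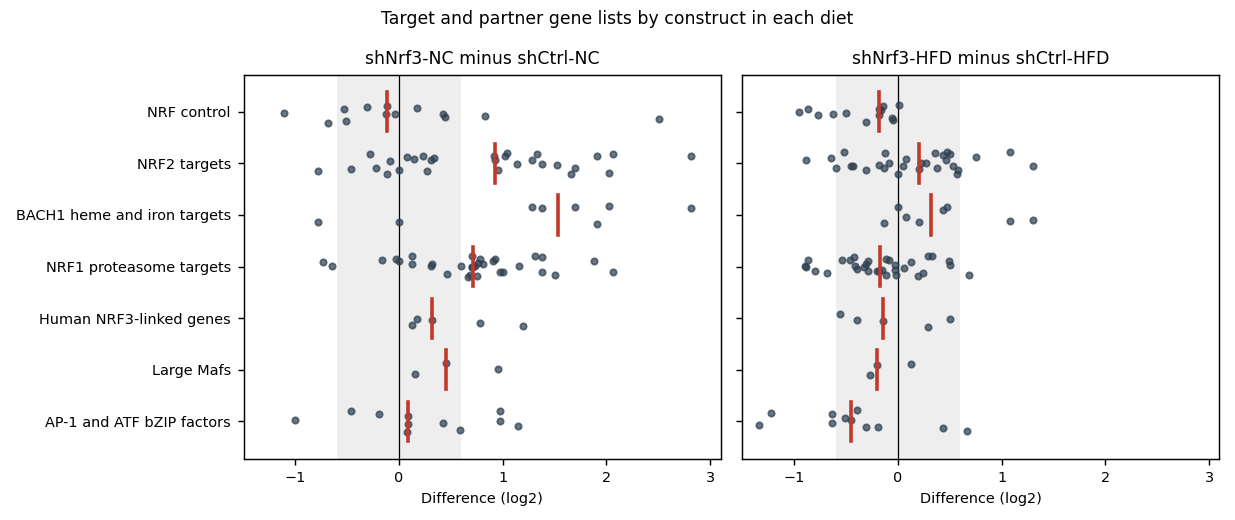
Log2 difference (horizontal axis) of each measured gene of 7 lists by construct in NC and in HFD, 1 point per gene, with the list median as a vertical bar and the span under 1.5-fold in grey. In NC the medians of NRF2, BACH1 and NRF1 target lists lie at 0.92, 1.54 and 0.72, and in HFD at 0.20, 0.32 and -0.17.

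Genes with the most similar pattern over the 4 arrays were found by the root mean square difference of values centred on each gene's mean. For Keap1 these were Ppm1k (0.016), Umps (0.017) and Phf21a (0.031), and 63 genes lay within 0.1. For Nfe2l2 they were Fuca2 (0.033), Slco2a1 (0.034) and Acot13 (0.040), with 87 genes within 0.1. For Nfe2l3 they were Emilin3 (0.0050), Rtp3 (0.0088) and Col9a3 (0.022), with 314 genes within 0.1. Emilin3 and Rtp3 read below the control median on all 4 arrays. With 4 arrays such likeness is common and is a description only.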

How the data were processed

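Total RNA (100 ng) of each tumor sample was labelled with biotin and hybridized, per the labels' protocols. The authors' deposited log2 values come from RMA in Affymetrix Expression Console, per the submitters' processing notes, with no version or genome build stated. The table has 28846 rows, including 5222 negative and 1324 positive control rows. Gene names are those of the platform annotation (19572 probe sets with 1 symbol), and for 55 genes with several the highest mean was taken. Differences between arrays were counted at 1.5-fold or more over all 19505 named genes, with no filter on level. The additive fit used limma 3.58.1 in R 4.3.3 with Benjamini-Hochberg adjustment over the 10021 genes with a mean of at least 5.73, and was tested on simulated data. Alternatives were cyclic loess, median centring, a floor at the control median, 2-fold, other filters and probe set means. Without shCtrl-NC and without each other array were chosen after seeing the data. Named genes were the 10 members, up to 4 per list with the largest averaged difference by construct and by diet, and the 3 genes most like Nfe2l3, Nfe2l2 and the member of widest range. Members and lists were chosen with earlier results of these data known. List entries without a named probe set were not analysed here, and no sequences are shown.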

Additional observations from a re-analysis of the deposited data

Results flagged for a closer look

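For 5 members the shNrf3 minus shCtrl difference had opposite signs in the 2 diets, as it did for 52.2% of named genes. The HFD difference minus the NC difference was -1.39 for Keap1, 0.94 for Nfe2l3, -0.74 for Bach2 and 0.39 for Mafk. It was -0.78 for Nfe2, which read below the control median on all 4 arrays. With 1 array per group this difference was not tested.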

How the results depend on the processing

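No paired analysis was possible because each group has 1 array and the groups share 1 replicate number only. The additive limma fit compares the constructs within diets. Of 40 member differences, cyclic loess turned the sign of 2, median centring of 4 and the floor at the control median of 4 (all of Nfe2), none of them 1.5-fold or more. At 2-fold the count of members apart by construct was 1 in NC and 0 in HFD, and by diet 1 with shCtrl. After median centring 6 members were 1.5-fold apart by diet with shCtrl, where 3 were before. In NC, cyclic loess left 3 members, without Nfe2l3, in place of 4. In the limma fit cyclic loess gave 9 genes called by construct and 1 by diet, and the other alternatives 0. Over the settings the smallest limma adjusted p by construct ran between 0.0104 and 0.869. Members with a range of 1.5-fold or more numbered 8 over all arrays, 6 without shNrf3-NC, 4 without shCtrl-NC and 5 each without shNrf3-HFD and without shCtrl-HFD. The cause of these changes was not tested. Signal over background limits the 7 members that lie within the negative control rows on every array.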
